A study of Homo sapiens with 12 samples.

Results

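The genes described here are 7 small heat shock proteins (CRYAB, HSPB1, HSPB2, HSPB3, HSPB6, HSPB7 and HSPB8), the stress-inducible HSP70 genes HSPA1A and HSPA1B, and DNAJB1, a partner of HSP70. They are 10 of the 28901 named genes in the table of estimated RNA-seq counts, found by their gene symbols. The 10 genes were chosen by their values in these same libraries across the 4 groups, so differences in them are described with their errors and without p-values, and the counts of calls given further on support nothing. The cells were adipocytes derived from ASC52telo, a line of human adipose stromal cells immortalized with hTERT, and every group had 3 libraries. Scramble control cells carried a non-targeting shRNA and linc-ADAIN knockdown (KD) cells carried 1 shRNA against the adipose lincRNA linc-ADAIN, both from a lentiviral vector with the fluorescent reporter ZsGreen by which transduced cells had been sorted. All 4 groups were differentiated for 7 days with insulin, dexamethasone, IBMX and rosiglitazone, kept for 7 further days with insulin and 1 µM dexamethasone, and collected at day 14. In each shRNA arm, 3 libraries came from cells without LPS and 3 from cells given LPS, a bacterial endotoxin, at 100 ng/mL for 4 h. The 3 libraries of a group came from 1 experiment in triplicate, so their spread may be technical. Expression of the targeted lincRNA was not analysed here.

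Small heat shock proteins bind unfolding proteins and hold them in a soluble state without using ATP, and several of them assemble into large oligomers. HSP70 proteins then refold or release such clients in cycles of ATP hydrolysis that J-domain proteins such as DNAJB1 start. Heat and other protein-damaging stress induce HSPA1A, HSPA1B, DNAJB1, HSPB1 and CRYAB through heat shock factor 1 (HSF1), which binds inverted repeats of the unit GAA in promoters. CRYAB, HSPB2, HSPB3, HSPB6, HSPB7 and HSPB8 are best known from skeletal and heart muscle, and CRYAB, HSPB1 and HSPB6 (HSP20) are also made in adipose tissue.

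The promoters are shown because HSF1 is the known route of stress induction for HSPA1A, HSPA1B, DNAJB1, HSPB1 and CRYAB. The genes below differ in how they moved. RefSeq windows on GRCh38.p14, from 250 bases before to 50 after each start, were given for 8 of the 10 genes, with 10 windows in all. CRYAB and HSPB2 were not searched. Each was searched for 2 inverted GAA units, written GAANNTTC (head to head) or TTCNNGAA (tail to tail), which read the same on both strands and can overlap one another. Of 35116 promoter windows of 300 bases, 13.5% held at least one of these motifs, 6.77% the head-to-head and 7.74% the tail-to-tail form. Among the family, 7 of the 8 genes and 8 of the 10 windows held a match, and 6 genes held the head-to-head form. No window of these genes held 3 units in a row, which 0.49% of all windows did. HSPB7 had no match. The matches upstream of the start are printed 5′ to 3′ on the strand of the gene, with the motif in capitals and the distance from the first motif base to the start.
HSPA1A, chr6:31815426-31815455, plus strand, 106 bases upstream: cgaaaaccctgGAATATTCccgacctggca
HSPA1B, chr6:31827622-31827651, plus strand, 105 bases upstream: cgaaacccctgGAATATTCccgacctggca
HSPB8, chr12:119178832-119178861, plus strand, 88 bases upstream: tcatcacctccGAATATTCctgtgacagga
HSPB1, chr7:76302480-76302509, plus strand, 182 bases upstream: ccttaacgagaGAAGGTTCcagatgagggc
DNAJB1, chr19:14518456-14518485, minus strand, 77 bases upstream: cgggcggggcgGAAGGTTCtggagggggct
DNAJB1, chr19:14518426-14518455, minus strand, 47 bases upstream: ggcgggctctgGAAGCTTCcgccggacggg
HSPB6, chr19:35757221-35757250, minus strand, 210 bases upstream: ttagtttcctcTTCTGGAAattggggaatc
HSPB6, chr19:35757207-35757236, minus strand, 196 bases upstream: tggaaattgggGAATCTTCatgtcaccttc
HSPB3, chr5:54455449-54455475, plus strand, 242 bases upstream: cactctctTTCTTGAAgtaagcaaggc

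The same 8 bases stood in HSPA1A, HSPA1B and HSPB8, and a second shared motif stood in HSPB1 and DNAJB1. The windows of HSPA1A and HSPA1B differed by 24 edits over 300 bases. A match is a run of letters, and binding of HSF1 was not measured.

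Counts on named genes totalled 48.1 to 53.8 M (1e6 counts) in scramble control, 31.5 to 44.5 M in scramble control with LPS, 33.4 to 50.5 M in KD and 28.4 to 45.3 M in KD with LPS. Levels are given as CPM, counts per 1e6 after scaling of the libraries by the TMM method. The labelled cell type had its markers: 6 of 8 markers of mature adipocytes, among them ADIPOQ, FABP4 and PLIN1, were abundant, while LPL and LEP stayed at or under 82 counts in every library. Summed over the 8, they lay at 3182 to 4408 CPM in scramble control, 3704 to 4302 with LPS, 620 to 1860 in KD and 498 to 1191 in KD with LPS. The third library of KD (620 CPM) and of KD with LPS (498 CPM) stood lowest, so CRYAB, HSPB6 and some counts of calls are given without them as well. Of 12 markers of skeletal and smooth muscle, 4 (MYOD1, ACTN2, MYH7 and CKM) had no count in any library, and with DES and MYOG 6 had at most 20 counts. In these bulk samples, fewer cells of a type and less RNA per cell cannot be told apart.

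CRYAB, or αB-crystallin, is a small heat shock protein that also chaperones the intermediate filament desmin, and its gene lies on chr11:111908564-111923722, minus strand (GRCh38, GENCODE release 44). Its level was 1875, 1687 and 2256 CPM in the scramble libraries and at 323, 259 and 187 CPM in the KD libraries. Every KD library thus lay far below every scramble library, and the group means were 1939 ± 290 and 256 ± 68.1 CPM (SD, n = 3). The fitted log2 fold change was -2.91 (standard error 0.18), which leaves 13.3% of the control level. With LPS, CRYAB was at 1976, 1934 and 1782 CPM in scramble control against 188, 180 and 146 CPM in KD. This gap was a log2 fold change of -3.47 (standard error 0.1), or 9.03% of the level in scramble control with LPS. Without the third KD library the log2 fold change was -2.73 without LPS, and without the third library of KD with LPS it was -3.37.

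LPS left CRYAB in scramble control at overlapping levels, with means of 1939 ± 290 and 1897 ± 102 CPM. In KD the mean was 256 ± 68.1 CPM without and 171 ± 22.3 CPM with LPS, and the ranges touched only between the lowest KD library (187 CPM) and the highest with LPS (188 CPM). The log2 fold change of LPS in KD was -0.58 (standard error 0.15). CRYAB ranked 45 of 28901 genes by mean CPM in scramble control and 555 in KD.

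HSPB6 (HSP20), a small heat shock protein that is a substrate of protein kinase A and lies on chr19:35754566-35758079, minus strand, was likewise far lower in both KD groups. Its level was 1249, 1201 and 1262 CPM in scramble control, and 333, 206 and 208 CPM in KD. The means were 1237 ± 32.2 and 249 ± 72.7 CPM, a log2 fold change of -2.31 (standard error 0.16), or 20.2% of control. With LPS its level was 1200, 1508 and 1261 CPM in scramble control and 205, 181 and 152 CPM in KD, a log2 fold change of -2.88 (standard error 0.12). The scramble libraries with and without LPS overlapped, whereas each KD library with LPS (152 to 205 CPM) lay below each KD library without it (206 to 333 CPM), a log2 fold change of -0.47 (standard error 0.16). That difference was -0.21 without the first KD library, the highest of its group. Without the third libraries, the differences of KD from scramble control were -2.19 and -2.78. Of its exon bases, 38.3% overlap a lncRNA gene on the opposite strand.

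**Figure D1:**
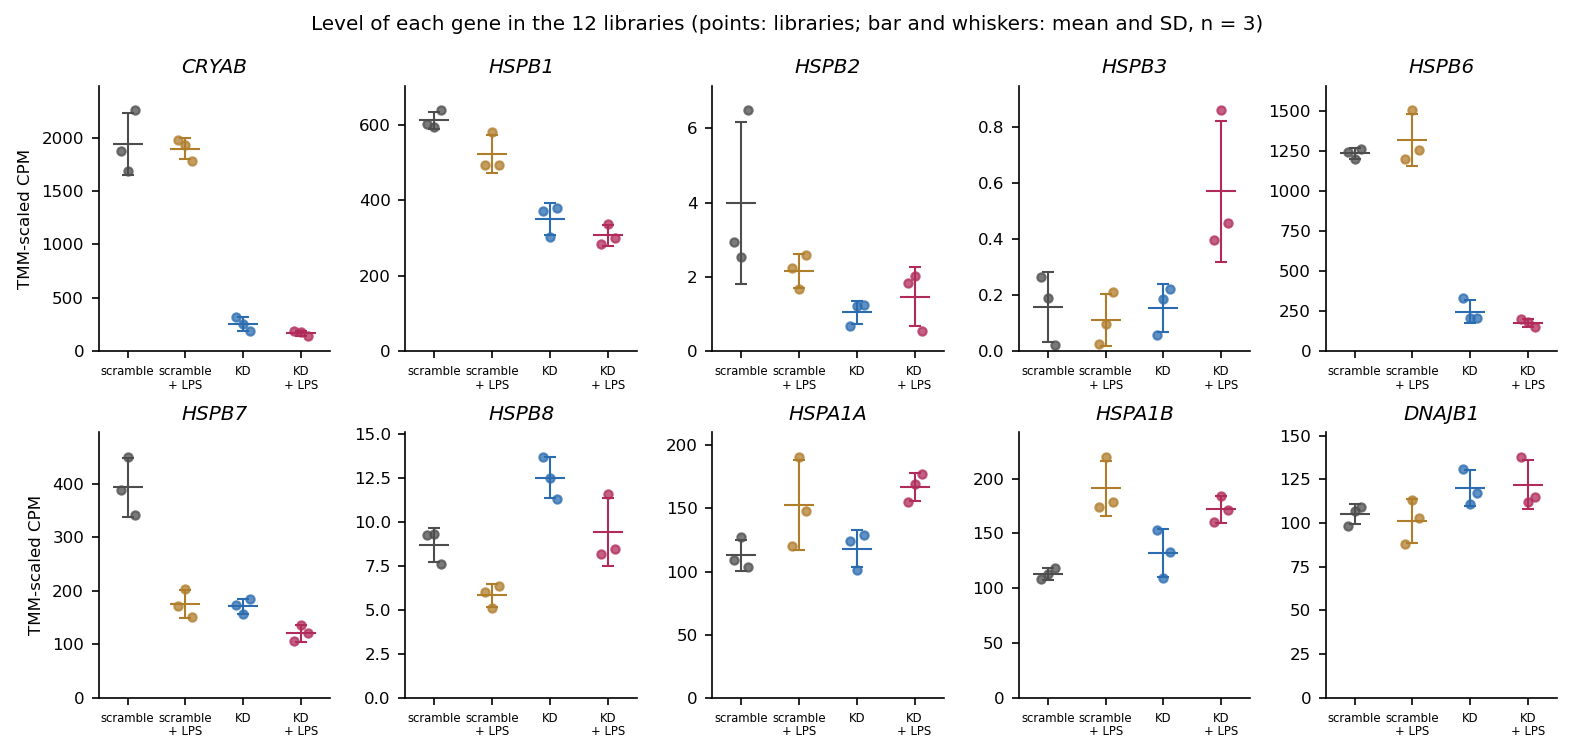
TMM-scaled CPM (linear y axis from 0, one scale per gene) of the 10 genes in the 12 libraries, with the 4 groups on the x axis; points are libraries, and bars with whiskers are the mean and SD of 3 libraries. CRYAB and HSPB6 fall into 2 levels, high in both scramble groups and low in both KD groups. HSPB7 is highest in scramble control without LPS, and HSPA1A and HSPA1B are highest in the groups with LPS.

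HSPB1 (HSP27), a widely expressed small heat shock protein that guards actin filaments, lies on chr7:76302673-76304295, plus strand. HSPB1 stood at 601, 594 and 638 CPM in scramble control and 371, 302 and 378 CPM in KD, so the groups did not overlap. The means were 611 ± 23.3 and 350 ± 41.7 CPM, for a log2 fold change of -0.80 (standard error 0.091) that leaves 57.5% of control. With LPS the levels were 493, 580 and 493 CPM in scramble control and 283, 337 and 300 CPM in KD, a log2 fold change of -0.77 (standard error 0.089). LPS was accompanied by small differences, -0.22 (standard error 0.084) in scramble control, where the groups did not overlap, and -0.19 (standard error 0.092) in KD, where they did.

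HSPB7, a small heat shock protein of heart and skeletal muscle that binds the actin cross-linker filamin C, lies on chr1:16014028-16019594, minus strand. Its levels were 389, 451 and 341 CPM in scramble control, 172, 203 and 151 CPM with LPS, 173, 156 and 185 CPM in KD, and 106, 137 and 122 CPM in KD with LPS. Scramble control without LPS stood above all other groups, scramble control with LPS and KD without LPS overlapped, and KD with LPS was lowest. The log2 fold change of KD was -1.20 (standard error 0.1) without LPS and -0.53 (standard error 0.11) with it. The log2 fold change of LPS was -1.15 (standard error 0.12) in scramble control and -0.50 (standard error 0.098) in KD.

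HSPB8 (HSP22), which works with the co-chaperone BAG3 in the autophagy of misfolded proteins, lies on chr12:119171555-119224855, plus strand, and was higher in KD with and without LPS. Its levels were 9.23, 9.3 and 7.58 CPM in scramble control and 13.7, 12.5 and 11.3 CPM in KD, without overlap, a log2 fold change of 0.52 (standard error 0.14). With LPS its level was 6.03, 5.12 and 6.35 CPM in scramble control and 8.15, 11.6 and 8.47 CPM in KD, a log2 fold change of 0.69 (standard error 0.2). The level with LPS was lower in scramble control by a log2 fold change of -0.56 (standard error 0.16), and the KD groups overlapped at a log2 fold change of -0.40 (standard error 0.17).

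HSPB2, which forms complexes with HSPB3 in muscle, and HSPB3 were near the limit of this depth. HSPB2 (chr11:111912734-111914093, plus strand) had 155, 134 and 302 counts in scramble control and 24, 65 and 51 in KD, or 3.99 ± 2.17 and 1.05 ± 0.314 CPM. The KD libraries lay below all scramble libraries, for a log2 fold change of -1.91 (standard error 0.4). With LPS the groups overlapped, at 88, 51 and 110 counts in scramble control and 65, 94 and 16 in KD. Its value is uncertain: 70.9% of its exon bases overlap exons of CRYAB on the opposite strand, and 85% of its 31-base stretches recur in the readthrough transcript HSPB2-C11orf52. That readthrough gene was at 6.48 CPM in scramble control, 5.79 with LPS, 2.45 in KD and 1.8 in KD with LPS.

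HSPB3 (chr5:54455699-54456377, plus strand) had 14, 10 and 1 counts in scramble control, 1, 3 and 9 with LPS, 2, 10 and 9 in KD, and 14, 40 and 13 in KD with LPS. The 3 libraries of KD with LPS held its highest levels (0.396, 0.86 and 0.457 CPM). With standard errors of 1 to 1.6 on the log2 scale, no difference in HSPB3 could be placed at this depth. Leaving out the third library of scramble control with LPS took its log2 fold change of KD with LPS from 2.31 to 3.17.

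HSPA1A and HSPA1B, the major stress-inducible HSP70 genes, stand 12195 bases apart from start to start on chromosome 6, at chr6:31815543-31817946 and chr6:31827738-31830254. Of the 31-base stretches of their transcripts, 76.9% of those of HSPA1A recur in HSPA1B and 73.3% the other way, so how the reads divide between the genes is uncertain and the sum is given too. HSPA1A took 40.8% to 53% of the sum in all libraries. HSPA1B also shares 36.6% of its exon bases with a lncRNA on the same strand.

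HSPA1A was at 109, 127 and 104 CPM in scramble control, 120, 191 and 148 CPM with LPS, 124, 101 and 129 CPM in KD, and 155, 169 and 177 CPM in KD with LPS. Scramble and KD libraries overlapped with and without LPS, and the log2 fold changes of KD were 0.06 (standard error 0.11) and 0.13 (standard error 0.13). With LPS the KD libraries lay above all KD libraries without it, by a log2 fold change of 0.50 (standard error 0.095), while in scramble control the groups overlapped at 0.44 (standard error 0.14).

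HSPA1B was at 108, 113 and 118 CPM in scramble control and 174, 220 and 179 CPM with LPS. The groups did not overlap, at a log2 fold change of 0.77 (standard error 0.095). In KD it was at 153, 109 and 133 CPM without and 160, 184 and 171 CPM with LPS, also without overlap, a log2 fold change of 0.38 (standard error 0.11). KD and scramble libraries overlapped, with log2 fold changes of 0.22 (standard error 0.11) without LPS and -0.15 (standard error 0.096) with LPS.

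The sum of both genes was 226 ± 12.3 CPM in scramble control and 344 ± 60 CPM with LPS, a log2 fold change of 0.61 (standard error 0.11). In KD the sum was 250 ± 34.5 CPM and 339 ± 20.7 CPM with LPS, a log2 fold change of 0.44 (standard error 0.095). The effect of KD on the sum was 0.15 (standard error 0.1) without LPS and -0.02 (standard error 0.11) with LPS. The summed level with LPS lay above that without LPS in every library of both arms (294 to 411 against 217 to 240 CPM, and 315 to 354 against 211 to 277 CPM), whereas scramble and KD libraries overlapped.

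DNAJB1 (HSP40), the J-domain protein that feeds clients to HSP70, lies on chr19:14514769-14560391, minus strand, and its group means ran only from 101 ± 12.6 to 122 ± 14 CPM. Its levels were 98.5, 107 and 109 CPM in scramble control, 88, 113 and 103 CPM with LPS, 131, 111 and 117 CPM in KD, and 138, 112 and 115 CPM in KD with LPS. The KD libraries lay just above the scramble libraries without LPS and overlapped them with LPS. The log2 fold changes were 0.19 (standard error 0.085) and 0.26 (standard error 0.11) for KD, and -0.04 (standard error 0.095) and 0.02 (standard error 0.096) for LPS in scramble control and KD.

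**Figure D2:**
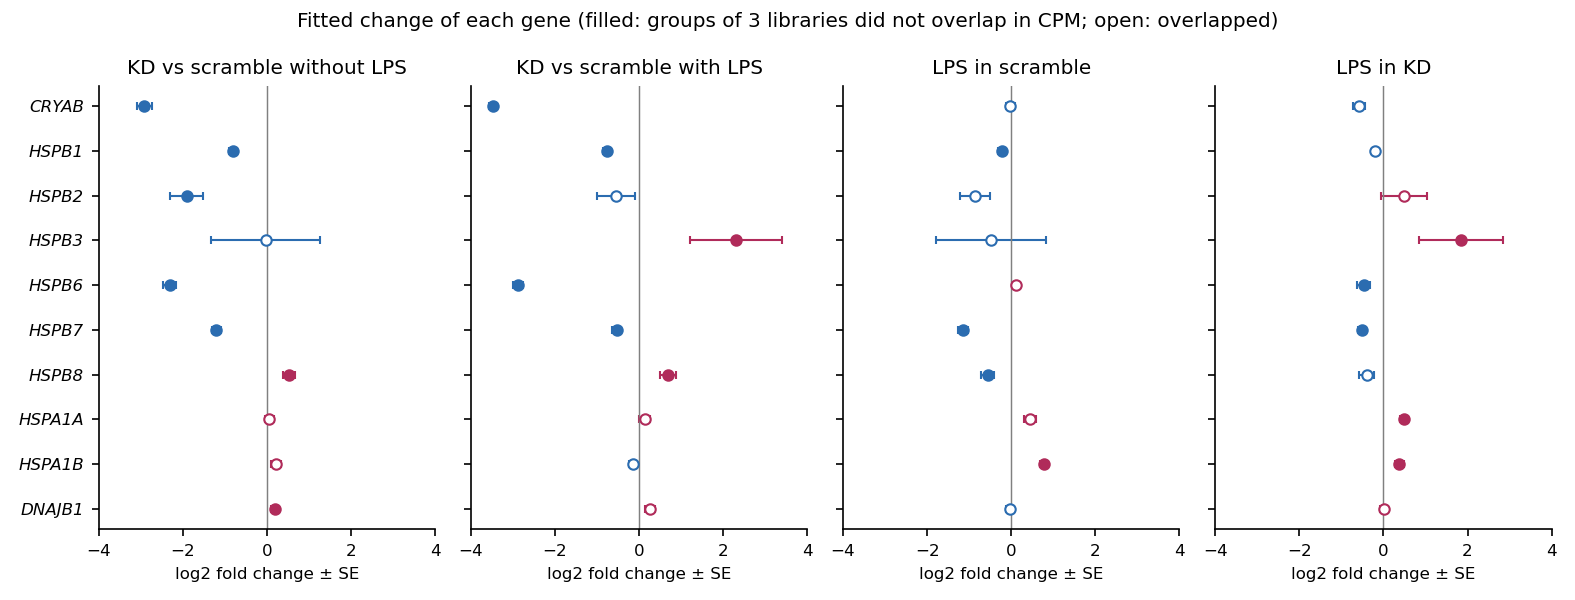
Fitted log2 fold change ± standard error (x axis) of each gene (y axis) in the 4 comparisons of 3 libraries against 3. Filled points mark groups that did not overlap in CPM, and blue and red mark values below and above 0. CRYAB (-2.91 and -3.47) and HSPB6 (-2.31 and -2.88) lie farthest left for KD, HSPB8 is right of 0 for KD, and HSPA1A and HSPA1B are right of 0 for LPS.

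Levels of different genes were compared per kb of transcript, as CPM per kb, and the order depended on the transcript taken for CRYAB, whose canonical transcript has 774 bases and whose longest has 3414. By canonical length, scramble control held CRYAB at 2505 CPM per kb, above HSPB6 (847) and HSPB1 (787), then HSPB7 (184), and the small heat shock genes HSPB2 (4.74), HSPB8 (4.68) and HSPB3 (0.234) were lowest. HSPA1A (47.2), DNAJB1 (46.8) and HSPA1B (44.9 CPM per kb) lay between and could not be ordered beyond their spread. By the longest transcript, HSPB6 (847 CPM per kb) stood above CRYAB (568) and HSPB1 (420). In KD, HSPB1 had the highest mean by either length, with 451 ± 53.7 CPM per kb (SD) by the canonical and 241 ± 28.7 by the longest transcript. CRYAB was at 331 ± 88 and 75.1 ± 19.9, and HSPB6 at 170 ± 49.8 by both. HSPB1 and CRYAB by the canonical length, and HSPB1 and HSPB6 by the longest, could not be ordered beyond their spread.

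**Figure D3:**
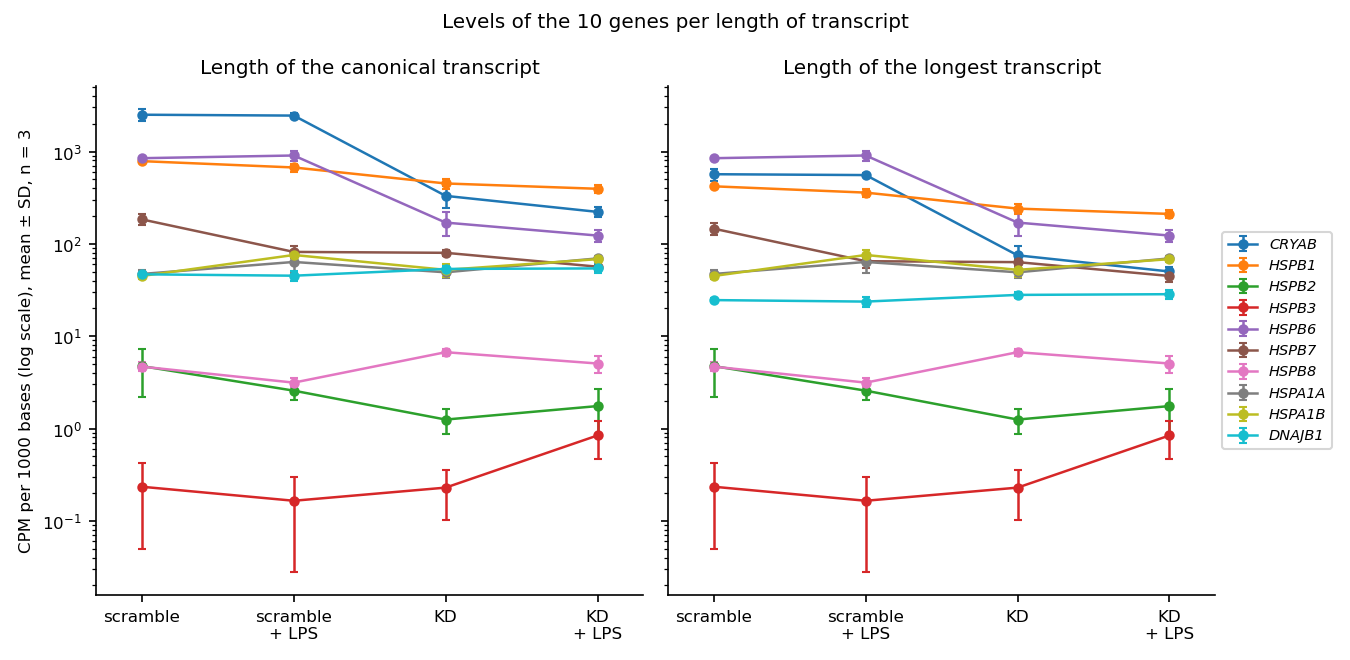
Mean CPM per kb of transcript ± SD (log y axis, n = 3 libraries) of the 10 genes in the 4 groups (x axis), with the length of the canonical transcript on the left and of the longest on the right. The lines of CRYAB and HSPB6 drop below that of HSPB1 in both KD groups, and HSPB8, HSPB2 and HSPB3 stay at or under 6.71 CPM per kb.

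Summed over the 7 genes, small heat shock transcripts stood at 3945 to 4511 CPM in the scramble libraries and 937 to 1215 CPM in the KD libraries, both without LPS. The sum in KD was 24.8% of that in scramble control without LPS and 20.1% with LPS. CRYAB and HSPB6 together held 3176 ± 318 CPM of the 4194 ± 289 CPM in scramble control and 505 ± 135 CPM of the 1041 ± 152 CPM in KD.

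The number of these genes that edgeR's quasi-likelihood test called at an adjusted p under 0.05 is given beside the share of all genes called, and since the genes were chosen by these contrasts nothing is read from it. For KD without LPS, 1 was called higher (HSPB8) where 12.1% of 16217 genes were, and 5 were called lower (CRYAB, HSPB1, HSPB2, HSPB6 and HSPB7) where 15.1% were. Of these, 4 differed at least 2-fold, against 7.77% of all genes. With LPS, 1 was called higher (HSPB8; 12.7% of 15981 genes) and 4 lower (CRYAB, HSPB1, HSPB6 and HSPB7; 14.2%), 2 of them at least 2-fold (8.48%). The median log2 fold change of the 10 was -0.41 without and -0.34 with LPS, beside 0.02 and 0.03 over all genes tested. Among all genes, 1965 were higher and 2446 lower without LPS, and 2793 and 1757 when libraries were scaled by size only. With LPS these were 2026 and 2266, and 2609 and 1796. Under that scaling by size, 3 of the 10 were called higher and 5 lower without LPS, and 2 and 4 with LPS, with DNAJB1 gaining a call in both and HSPA1B without LPS. HSPB8 lost its call without the third scramble library (0.42) or the first KD library (0.45), and with LPS without the second scramble library (0.60) or the second KD library (0.50).

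For LPS in scramble control, HSPA1B was called higher (5.9% of 15920 genes) and HSPB7 and HSPB8 lower (8.38%), with HSPB7 at least 2-fold (2.68%). For LPS in KD, HSPA1A and HSPA1B were called higher (5.32% of 16169 genes) and CRYAB and HSPB7 lower (6.03%), none of them at least 2-fold (2.25%). The median log2 fold change of the 10 was -0.13 and -0.08, beside 0.02 and 0.01 over all genes. HSPB8 lost its call in scramble control in each of 5 fits without 1 library (-0.63 to -0.48) and kept it without the third scramble library (-0.65). CRYAB lost its call in KD without KD replicate 1 (-0.39) or 2 (-0.58), or KD with LPS replicate 2 (-0.61) or 3 (-0.48), and by DESeq2. HSPA1B lost its call in KD without KD replicate 2 (0.26) or 3 (0.38), or KD with LPS replicate 2 (0.33) or 3 (0.39), under library size only (0.34), and the value was 0.39 with no call without both KD libraries numbered 3. Conversely, HSPB6 in KD gained a call in 6 of 15 alternatives and HSPA1A in scramble control in 5 of 13. Among all genes, 860 were higher and 975 lower in KD, and 667 and 1227 when libraries were scaled by size only.

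Whether LPS acted differently in KD was fitted as an interaction over the 12 libraries. None of the 10 genes was called, where 1.28% of 17173 genes were. At an unadjusted p under 0.05 there were 5 (CRYAB, HSPB2, HSPB6, HSPB7 and HSPA1B), beside 11.1% of all genes, and DESeq2 called 1, HSPB7, beside 475 genes in all. The 10 genes were chosen by their values in these groups, and nothing is read from these counts. The difference in the log2 fold change of LPS, KD minus scramble control, was 0.67 (standard error 0.17) for HSPB7, from -1.15 in scramble control and -0.50 in KD. It was -0.55 (standard error 0.21) for CRYAB, -0.57 (standard error 0.21) for HSPB6 and -0.37 (standard error 0.15) for HSPA1B. CRYAB was called without the third KD library (-0.75), and HSPB7 without the third scramble library (0.76), the second scramble library with LPS (0.79) or the first KD library with LPS (0.74).

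Like CRYAB and HSPB6, the adipocyte markers as a sum were lower in KD. Their summed level in KD was 34.6% of that in scramble control without LPS and 20.9% with LPS, where CRYAB and HSPB6 together were at 15.9% and 10.9%. CRYAB stood at 45% to 58.9% of the adipocyte sum in the 6 scramble libraries and at 15.8% to 30.2% in the 6 KD libraries, so the ratio did not overlap between the arms. HSPB6 stood at 28.6% to 39.2% in scramble libraries and 14.7% to 33.5% in KD libraries, which overlapped. The highest ratios in KD were those of the third libraries, 30.2% and 29.3% for CRYAB and 33.5% and 30.6% for HSPB6. Within each KD group, the order of the 3 libraries by adipocyte sum was also their order by CRYAB, but in neither scramble group. The scramble libraries had sums of 3182, 3621 and 4408 CPM with CRYAB at 1875, 1687 and 2256 CPM. With LPS their sums were 3704, 4302 and 3956 CPM with CRYAB at 1976, 1934 and 1782 CPM. For HSPB6 the order was the same in both groups with LPS and in neither without it. The part of adipocyte content in these results was not tested.

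**Figure D4:**
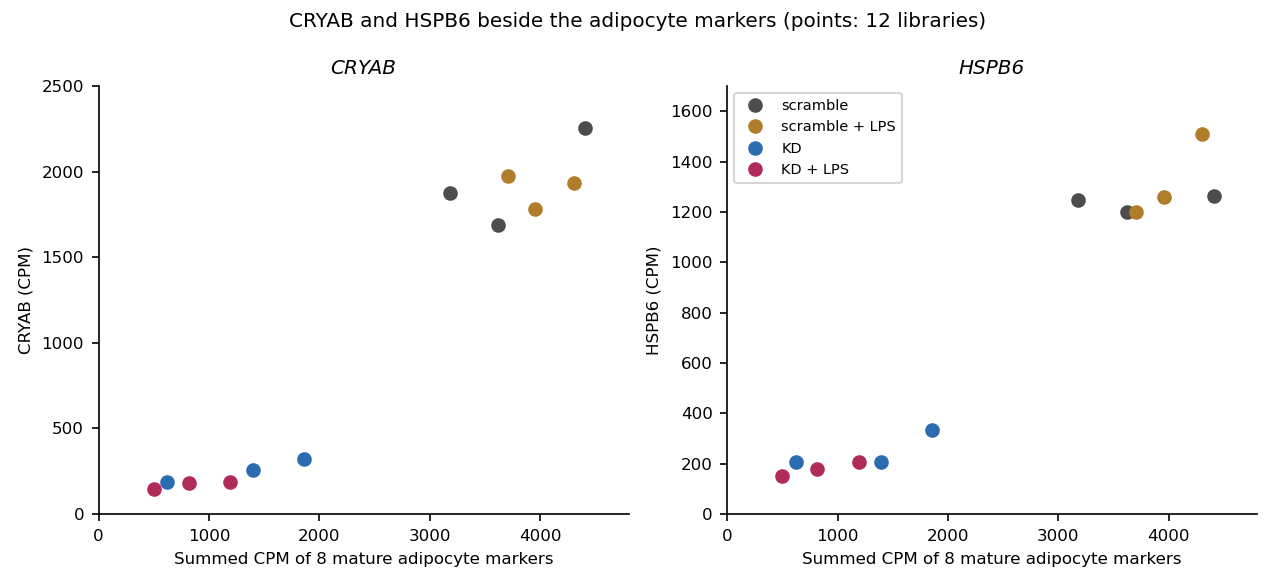
CPM of CRYAB (left) and HSPB6 (right) on the y axis against the summed CPM of 8 mature adipocyte markers on the x axis, 1 point per library and 1 colour per group, all axes linear from 0. The 6 scramble libraries form a cloud at 3182 to 4408 CPM of markers, and the 6 KD libraries lie at 498 to 1860 CPM with CRYAB at or under 323 CPM.

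Muscle markers were read beside HSPB7 and the other muscle-type genes. The sum of the 12 was 766 to 950 CPM in scramble control, 350 to 398 with LPS, 247 to 330 in KD and 159 to 212 in KD with LPS, most of it from TAGLN (766 CPM of the mean in scramble control and 137 in KD with LPS), which encodes the actin-binding protein transgelin. HSPB7 was likewise highest in scramble control and lowest in KD with LPS, with means of 394 ± 55.1, 175 ± 25.9, 171 ± 14.4 and 121 ± 15.7 CPM. Since DES and MYOG had at most 17 counts in any library and MYOD1, ACTN2, MYH7 and CKM had 0, defining markers of skeletal muscle were at or near 0. For KD without LPS, edgeR called 0 of the 8 muscle markers tested higher and 5 lower (all genes, 12.1% and 15.1%), and with LPS 1 of 7 higher and 3 lower (12.7% and 14.2%). For LPS in scramble control 0 of 8 were called higher and 3 lower (5.9% and 8.38%), and for LPS in KD 1 and 2 of 8 (5.32% and 6.03%). The list did not move as one: with LPS in KD, where HSPB7 was lower, SYNPO2 went from 13.5 to 24.6 CPM, MYLK from 4.59 to 6.75 and ACTA2 from 16.9 to 19.5. Stromal markers summed to 2987 to 3062 CPM in scramble control, 2707 to 2912 with LPS, 2287 to 2341 in KD and 2034 to 2240 in KD with LPS. That sum held opposite differences between scramble control and KD without LPS, with THY1 at 764 and 148 CPM, PDGFRB at 977 and 523, ENG at 285 and 111, but DPP4 at 113 and 475 and PDGFRA at 763 and 910. Macrophage markers summed to 58.3 to 72.4 CPM in scramble and 81.6 to 120 CPM in KD libraries, with PTPRC at or under 12 counts. Within them CD163 was at 4.33 CPM in scramble control and 68.6 in KD, and CD68 at 53.6 and 31.1. Endothelial markers summed to 10.3 to 19 CPM in scramble and 5.4 to 10.1 CPM in KD libraries. That sum also held opposite differences, with VWF at 9.66 CPM in scramble control and 2.21 in KD, but KDR at 0.0839 and 0.679. With LPS, KDR was at 0.107 CPM in scramble control and 3.12 in KD. The part of these markers was not tested.

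The genes whose profiles over the 12 libraries were most like that of CRYAB, by the root mean square distance of centred log2 CPM among 11810 genes, were NOTCH3 (0.15), LXN (0.24), PAPPA2 (0.26), PCOLCE2 (0.29) and AZGP1 (0.30), against a median distance of 1.64. NOTCH3, a Notch receptor of mural cells, went from 40.2 CPM in scramble control and 43.6 with LPS to 5.1 in KD and 3.52 in KD with LPS. HSPB6 was in place 8 at 0.33. HSPB2 (1.18), HSPB1 (1.24) and HSPB7 (1.28) stood in places 540, 681 and 789, all nearer than the median. The distance also counts the size of a change, so a smaller fall in the same direction stands farther away. For HSPA1B, the nearest profiles were CLK2 (0.09), ENGASE (0.14), WBP1 (0.14), DDX60 (0.15) and ATG16L2 (0.16), with a median of 0.43. HSPA1A was in place 25 (0.18) and DNAJB1 in place 2924 (0.35). These distances are descriptions, since all genes share the same libraries and their depth.

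Another 72 chaperone and stress genes were tested by edgeR's quasi-likelihood test to set the family beside its pathway. These lists were also chosen with earlier results of these data known, and most genes named from them were picked by size of change. Their counts of calls and adjusted p-values are therefore descriptions and not independent evidence on the pathway. For KD without LPS, 66 could be tested, 11 were called higher and 19 lower, beside 12.1% and 15.1% of all genes. The median log2 fold change of the 66 was -0.09. When libraries were scaled by size only, 20 were higher and 15 lower, and without the third KD library 11 and 15. With LPS, 17 were higher and 12 lower of 66, beside 12.7% and 14.2% of all genes. Without the third KD library with LPS these were 14 and 11. For LPS in scramble control, 3 were higher and 16 lower of 68, beside 5.9% and 8.38% of all genes. These counts fell to 1 and 4 without scramble replicate 2, 1 and 6 without scramble with LPS replicate 3, and 1 and 10 without scramble replicate 1. For LPS in KD, 11 were higher and 11 lower of 66 (7 and 14 by size only), beside 5.32% and 6.03% of all genes. These fell to 7 and 5 without KD replicate 1, 9 and 5 without KD with LPS replicate 1, 7 and 7 without KD with LPS replicate 3, and 6 and 7 without both KD libraries numbered 3. HSF1 itself, at 75.5 ± 5.56 CPM in scramble control and 66.9 ± 5.76 in KD, was not called for KD (log2 fold change -0.17, adjusted p = 0.18). HSF1 fell with LPS in scramble control by a log2 fold change of -0.37 (adjusted p = 0.017), a call that was lost without scramble replicate 1 or 2, or scramble with LPS replicate 3 (adjusted p up to 0.087, log2 fold change -0.45 to -0.33 over all alternatives).

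Genes known to be induced by HSF1 on heat were called in both directions. Of 20, 2 rose and 8 fell with KD without LPS (all genes, 12.1% and 15.1%), and 3 rose and 6 fell with KD with LPS (12.7% and 14.2%), where scaling by size only gave 4 of each. With LPS, 1 rose and 8 fell in scramble control (5.9% and 8.38%), and 2 rose and 5 fell in KD (5.32% and 6.03%), where HSPA1A and HSPA1B were higher. HSPA6, a strictly stress-induced HSP70, rose with KD from 1.11 ± 0.311 to 4.92 ± 0.805 CPM (log2 fold change 2.15, standard error 0.29, adjusted p = 0.00019). HSPA8, the constitutive HSP70, fell from 2173 ± 30.6 to 1654 ± 77.4 CPM (log2 fold change -0.39, adjusted p = 0.00097), and its nucleotide exchange factor HSPH1 fell by a log2 fold change of -0.48 (adjusted p = 0.00075). HSP90AA1, the inducible HSP90, was at 946 ± 20.1 and 938 ± 52 CPM and was not called in any of the comparisons. BAG3, the partner of HSPB8, fell with KD without LPS (log2 fold change -0.38, adjusted p = 0.0032) and with LPS (-0.44, adjusted p = 0.0064), and in KD with LPS (-0.46, adjusted p = 0.0033). In scramble control BAG3 also fell with LPS (-0.39, adjusted p = 0.018), a call lost without scramble replicate 2 or 3, or scramble with LPS replicate 1 or 3 (adjusted p up to 0.096, log2 fold change -0.50 to -0.32 over all alternatives).

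The other J-domain co-chaperones gave 2 higher and 6 lower of 14 for KD without LPS (all genes, 12.1% and 15.1%). DNAJB4, a cytosolic relative of DNAJB1, fell with KD from 696 ± 30 to 274 ± 5.13 CPM (log2 fold change -1.34, adjusted p = 1.3e-07), and with LPS in scramble control from 696 ± 30 to 230 ± 28.7 CPM (log2 fold change -1.58, adjusted p = 1e-06). In KD, LPS took it from 274 ± 5.13 to 170 ± 21.2 CPM (log2 fold change -0.69, adjusted p = 8.8e-05). FKBP5, a glucocorticoid-responsive co-chaperone of HSP90, fell with KD by a log2 fold change of -0.63 (adjusted p = 0.00035) without LPS and -1.08 (adjusted p = 3.5e-07) with LPS, in cells that all received dexamethasone.

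Endoplasmic reticulum stress genes, 12 in the list, gave 4 called higher and 3 lower for KD without LPS (all genes, 12.1% and 15.1%). With LPS, 6 were called higher and 0 lower (12.7% and 14.2%). For LPS, 2 were called higher and 0 lower in scramble control (5.9% and 8.38%), and 7 and 0 in KD (5.32% and 6.03%). HERPUD1, DDIT3 and DNAJB9, named for the largest changes with KD without LPS, were higher. The genes called lower there were DNAJC3 (log2 fold change -0.42, adjusted p = 0.0052), DNAJB11 (-0.41, adjusted p = 0.0043) and HSP90B1 (-0.24, adjusted p = 0.049). HERPUD1, which serves degradation of misfolded proteins from the endoplasmic reticulum, rose with KD from 35.8 ± 3.7 to 122 ± 3.4 CPM (log2 fold change 1.77, adjusted p = 1.1e-07). DDIT3 (CHOP) rose by 1.78 (adjusted p = 1.7e-06) and the J-domain protein DNAJB9 by 1.12 (adjusted p = 8.2e-06). The resident HSP70 of that compartment, HSPA5 (BiP), was at 1097 ± 31.9 CPM in scramble control and 1183 ± 51.9 in KD and was not called without LPS (log2 fold change 0.11, adjusted p = 0.25), but rose with KD in the presence of LPS (0.34, adjusted p = 0.0014) and with LPS in KD (0.33, adjusted p = 0.0015).

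**Figure D5:**
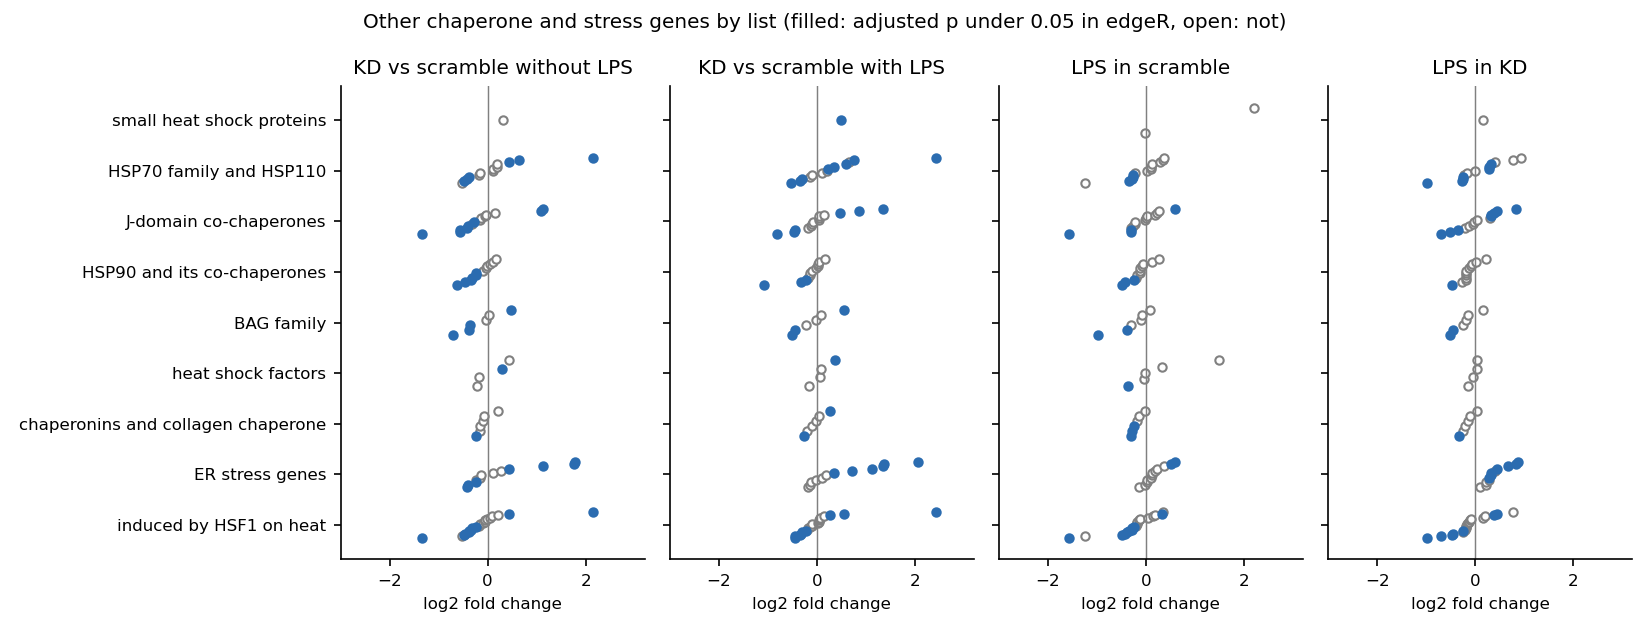
Log2 fold change (x axis) of the other chaperone and stress genes by list (y axis; a gene may stand in more than 1 list) in the 4 comparisons, 1 point per gene tested, filled where edgeR's adjusted p was under 0.05. Most genes lie near 0 on either side, with HSPA6, HERPUD1 and DDIT3 at the right and DNAJB4 at the left for KD without LPS.

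Among all genes, 12.1% were called higher and 15.1% lower for KD without LPS, and 12.7% and 14.2% with LPS. For LPS in scramble control these shares were 5.9% and 8.38%. The HSP70 family and HSP110 beside HSPA1A and HSPA1B gave 3 higher and 3 lower of 13 for KD without LPS (6 and 3 by size only) and 5 and 3 with LPS. HSP90 and its co-chaperones gave 6 of 12 lower and 0 higher for KD without LPS and 3 lower with LPS, and by size only 4 lower and 2 higher without LPS. The BAG family gave 1 higher and 3 lower of 6, with BAG2 at a log2 fold change of -0.70 (adjusted p = 0.00019). In the list of heat shock factors, 1 of the 4 genes tested was called for KD without LPS, and no heat shock factor itself was called. The called gene was HSBP1, a negative regulator of HSF1 (0.29, adjusted p = 0.014). Its call was lost without scramble replicate 2 (adjusted p up to 0.073, log2 fold change 0.24 to 0.40 over all alternatives). In the list of 6 chaperonins with the collagen chaperone SERPINH1, CCT2 was called lower for KD without LPS (log2 fold change -0.23, adjusted p = 0.028). That call was lost by size only, with a replicate block, and without scramble replicate 1 or 2 or KD replicate 1 or 3 (adjusted p up to 0.24). For LPS in scramble control 3 were called lower (CCT2, CCT5 and SERPINH1), and none of these was called without scramble replicate 2 or scramble with LPS replicate 3, and only CCT2 without scramble replicate 1 or scramble with LPS replicate 1. From the list set beside the 7 small heat shock proteins, HSPB11 could be tested for KD. Its level was 16 ± 1.01 CPM in scramble control and 19.7 ± 1.67 in KD without a call (adjusted p = 0.067), and rose with KD in the presence of LPS by 0.49 (adjusted p = 0.015), which was lost without the third scramble library with LPS or the first KD library with LPS (adjusted p up to 0.078, log2 fold change 0.41 to 0.60 over all alternatives).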

How the data were processed

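RNA-seq was analysed in 12 libraries of ASC52telo adipocytes, 3 per group. The authors pseudoaligned reads to GRCh38 transcripts with kallisto 0.44.0 and deposited estimated counts per gene name, not normalized for library size or length. bcl2fastq 2.19 and DESeq2 1.32.0 are also named in the submitters' processing notes. Whether the counting used strand, and the annotation release, are not given in the sources used here. The deposited values are whole numbers. The 1 row with no gene name (0.235% to 0.306% of a library) was left out.

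In R 4.3.3, counts were rounded, genes under 10 counts over the fitted libraries were dropped, and edgeR 4.0.16 fitted its quasi-likelihood F test on TMM-scaled counts with Benjamini-Hochberg adjustment over all genes. Each group comparison used its 6 libraries, and the interaction used 12. The standard error is the log2 fold change divided by the square root of F. Printed CPM were scaled over all 12 libraries. The steps were tested on simulated data. Depth was 28.4 to 53.8 M counts on named genes, which leaves genes with few counts (HSPB2, HSPB3, HSPA6) imprecise.

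The 10 genes and all lists were chosen with earlier results of these data known. From each list, up to 3 called genes with the largest change and a mean of at least 50 counts could be named, and HSF1, HSPA8, HSP90AA1, HSPH1, BAG3 and HSPA5 always. The endoplasmic reticulum stress genes called lower for KD without LPS are named as well. The 10 genes are described without p-values, and calls of these fits are only counted beside the share of all genes called. Motifs and figures used Python 3.11.15, pandas 2.3.3, numpy 2.4.6 and matplotlib 3.10.9. Promoter windows are RefSeq's (GRCh38.p14) and gene positions and transcript lengths GENCODE's, which need not be the index the authors used. Alternatives were DESeq2 1.42.0, other scalings and filters, all 12 libraries in each fit, the replicate number as a block, HSPA1A and HSPA1B summed, and each library left out. Leaving out both KD libraries numbered 3 and the canonical transcript length were chosen after seeing the data. Protein identity was not analysed here.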

Additional observations from a re-analysis of the deposited data

Results flagged for a closer look

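Of 68 other chaperone genes tested, DNAJB4, a cytosolic J-domain co-chaperone, was the 1 called by edgeR's interaction test of linc-ADAIN KD with LPS. That is 1.47% of them, near the 1.28% of all 17173 genes, so the count says nothing about chaperone genes as a set. The log2 fold change of DNAJB4 with LPS was -1.58 in scramble control and -0.69 in KD. The difference, KD minus scramble control, was 0.90 (standard error 0.13, adjusted p = 0.0015, 12 libraries). LPS took it from 696 ± 30 to 230 ± 28.7 CPM in scramble control, and from 274 ± 5.13 to 170 ± 21.2 CPM in KD (SD, n = 3). All 6 libraries with LPS lay below those of their own arm without it. Over the 20 alternatives the difference was 0.78 to 1.00, with adjusted p from 3e-08 to 0.011. No cause was tested.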

How the results depend on the processing

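Of the values of single genes of the family under an alternative, 756 moved by less than 1 SD between libraries and 3 by more (DNAJB1 for KD without LPS at 0.30 under library size only, HSPB3 for KD with LPS at 3.17 without the third scramble library with LPS, and HSPB6 in the interaction at -0.30 without the first KD library). No called log2 fold change of the 10 genes changed its sign under the alternatives run. For both comparisons of KD, the counts of calls stayed within 1.5 times. For LPS in scramble control, DESeq2 called 5 of the 10 genes and the fit with a replicate block 6, in place of 3. For the interaction, DESeq2 called 475 genes in place of 219, 1 of the 10 and 2 of the other chaperone genes, no filter on low counts gave 431, 2 and 3, and the replicate block called 1 of the 10. Without both KD libraries numbered 3, 1179 genes in place of 1835 and 13 other chaperone genes in place of 22 were called for LPS in KD, and 139 genes in the interaction. The cause was not tested, apart from the fewer libraries in the last.

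With each library left out in turn, 1187 to 2106 genes, 2 to 3 of the 10 and 5 to 16 other chaperone genes were called for LPS in scramble control (5 without the second scramble library, against 19). For LPS in KD these were 1285 to 1658, 2 to 4 and 12 to 20, and for the interaction 92 to 243, 0 to 1 and 1 to 2. With library size in place of TMM, 2793 genes were higher and 1757 lower for KD without LPS (1965 and 2446 with TMM), 2609 and 1796 with LPS (2026 and 2266), and 667 and 1227 for LPS in KD (860 and 975), and the median log2 fold change of all genes for KD went from 0.02 to 0.13. Whether replicate numbers pair the libraries was not settled. Same-numbered libraries deviated with correlations of -0.1 to 0.246, and not each was above 0.1. For LPS in scramble control these were 0.246, 0.0735 and 0.055, beside -0.148 to 0.0906 for libraries of different numbers. There the replicate block called 3260 genes in place of 2274. Apart from the counts of the 10 genes given above, the replicate block moved no count of calls by over 1.5 times. At this depth HSPB2 and HSPB3 were limited by their counts.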
